A study of Rattus norvegicus with 2 samples.

Results

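The genes described here encode calcium-binding proteins of a pair of families, the S100 proteins and the annexins. They were measured by single-cell RNA sequencing (scRNAseq) of the stellate ganglion, a paired sympathetic ganglion at the base of the neck that supplies the heart. The 10 members were taken by gene symbol from the 25399 genes with a deposited value. They are 6 S100 genes (S100a6, S100a4, S100a10, S100a11, S100a13 and S100a1) and 4 annexins (Anxa2, Anxa6, Anxa5 and Anxa1). The list was chosen by the difference between the strains in these same values, since S100a6 was picked for its much higher mean in SHR and the others as its relatives. Every strain difference below is therefore a description with no test. The study compared male normotensive Wistar rats, an outbred stock, with male prehypertensive SHRs (spontaneously hypertensive rats), an inbred strain, both at 5 to 6 weeks of age. The labels name no treatment for either group. Ganglia were dissociated with collagenase IV and trypsin, and 1 droplet library was sequenced per strain. How many animals went into each library is not given in the sources used here. Strain, litter, dissociation and library cannot be told apart with 1 library on each side.

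S100 proteins are small dimeric proteins with a pair of EF-hand calcium-binding loops in each subunit. On binding calcium most of them expose a surface that docks onto target proteins, among them annexins. S100A10 is the exception, since its loops no longer bind calcium and it stays in the docking shape. Annexins bind acidic phospholipids in a calcium-dependent way and act in membrane repair, in exocytosis and in linking membranes to actin. In peripheral ganglia S100B is the classic marker of glia, whereas S100A6, S100A10 and S100A11 are also found in neurons.

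The values are averages over the sympathetic neuron cluster of each library. Each is given as a mean per 10000, the average count of a gene per 10000 counts of a neuron. A higher mean can come from more neurons holding the transcript or from more copies in each neuron, and these averages do not separate the 2. The number of neurons and the counts per neuron are not known, so no mean has an error or a detection limit. The lowest mean above 0 was 0.000140 per 10000 in Wistar neurons against 0.000391 in SHR neurons. The values of 10 sympathetic neuron markers are given as a description of the cluster. All 10 were above 0 in both libraries, but so were 16000 genes in Wistar and 14645 in SHR. The authors also used Th, Dbh and Slc6a2 as markers of these neurons, so the values do not check the label. The 10 markers summed to 143 per 10000 for Wistar and 155 for SHR, of which the general neuronal gene Stmn2 made up 45.3 and 53.7. Of the 10 markers 4 were higher in SHR, the general neuronal genes Stmn2, Uchl1 and Snap25 and the transcription factor gene Phox2a, and 6 were lower. Among the lower were genes of noradrenaline synthesis and storage, with Dbh at 10.2 and 6.36 per 10000, Ddc at 7.05 and 3.44 and Slc18a2 at 5.36 and 3.63. Of 35 markers of glia, fibroblasts, vascular, immune and blood cells with a value above 0, 31 were lower and 4 higher in SHR. Most genes were lower too, as 34.4% of the 7621 genes averaging at least 0.1 per 10000 over both libraries were higher. Many of the 35 markers averaged less than that minimum. The sum of the 35 markers was 23.8 per 10000 in Wistar, compared with 12.9 in SHR. Most of this sum came from Pmp22, at 11.3 and 8.58 per 10000, and Apoe, at 6.24 and 2.23.

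The S100 members were higher in the SHR neurons throughout, while the annexins were divided. All 6 S100 members had a higher mean in SHR, against 2 of the 4 annexins. Together the 6 S100 members summed to 39.9 per 10000 in the Wistar and 86.2 in the SHR library, a ratio of 2.16. The 4 annexins summed to 11.3 and 12.5 per 10000, a ratio of 1.11. Of the 10 members 8 were higher in SHR, and 34.4% of the 7621 genes that averaged at least 0.1 per 10000 over both libraries were higher. At least 1.5 times higher were 5 members, all of them S100 genes, and 5.22% of those 7621 genes. At least 1.5 times lower was 1 member, Anxa1, and 26.5% of those genes. Anxa1 is also the 1 member under that minimum, so 9 of the 10 members passed it. Nothing is read from these counts about the members, since they were chosen with the contrast known. The median ratio of SHR to Wistar was 1.45 over the 10 members and 0.863 over the 7621 genes. With every ratio divided by 0.863, 9 members were above 1, since Anxa6 moved to 1.003, and 7 were at least 1.5 times above, S100a4 and Anxa5 being added. Of the 7621 genes 13.2% were then at least 1.5 times above and 17.3% at least 1.5 times below. The median ratio itself grew with the level. It was 1.04 over the genes averaging at least 1 per 10000 and 1.17 over those averaging at least 10, and the Anxa6 ratio, 0.866, was below both.

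**Figure D1:**
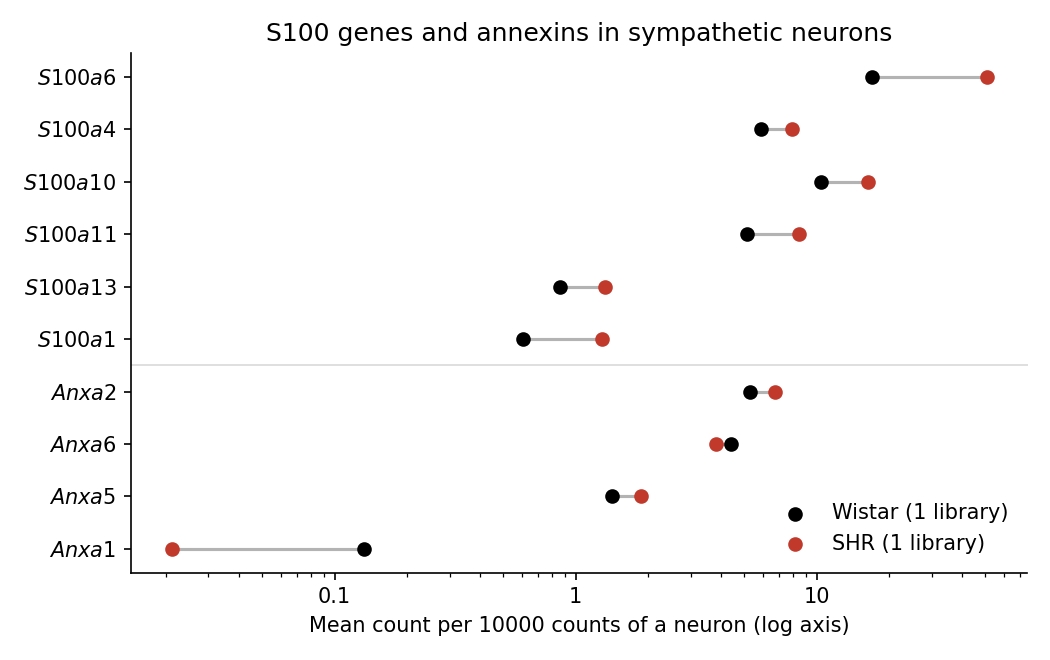
Mean count per 10000 counts of a neuron (log axis) for the 6 S100 genes and 4 annexins, with 1 point for the Wistar library in black and 1 for the SHR library in red. All 6 S100 genes lie further right in SHR, with S100a6 going from 17.0 to 50.8, and Anxa6 and Anxa1 lie further left.

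S100a6 encodes calcyclin, an S100 protein of growing and differentiating cells that binds annexins, tropomyosin and the ubiquitin-pathway adaptor CacyBP. It was the most abundant member in both libraries, with a mean of 17.0 per 10000 in Wistar neurons against 50.8 in SHR neurons. This is a ratio of 2.99, or a difference of 1.53 in log2 of 1 plus the mean. Its rank among all genes was 35 for Wistar and 17 for SHR, so in SHR the transcript stood close to the abundant neuronal gene Stmn2, a microtubule regulator with a mean of 53.7 per 10000. Among the 94 genes averaging at least 10 per 10000, S100a6 had the highest ratio. Among the 1676 genes averaging at least 1 per 10000, the 1 other gene with a ratio that high was Jund, an AP-1 transcription factor gene named here after its values were seen. The mean of Jund was 1.45 per 10000 in Wistar, compared with 10.1 in SHR.

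S100a6 alone made up 33.2% of the summed mean of the 10 members in Wistar and 51.5% in SHR. It accounted for 71.3% of the difference between the sums, which were 51.1 and 98.6 per 10000. Without S100a6 the other 9 members summed to 34.1 per 10000 in the Wistar and 47.8 in the SHR library, a ratio of 1.40, and 7 of the 9 were higher in SHR. The 5 other S100 members summed to 22.9 and 35.3 per 10000, a ratio of 1.54.

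The promoters of S100a6, of its chromosomal neighbour S100a4, of Anxa2 and of Anxa1 are shown because they pair the largest ratio, smaller ones and the lowest among the members. Each is 300 bases of RefSeq sequence in build GRCr8, from 250 bases before to 50 bases after the annotated start. They lie at chr2:178398287-178398586 on the plus strand for S100a6, chr2:178388279-178388578 on the plus strand for S100a4, chr8:78986002-78986301 on the plus strand for Anxa2 and chr1:227303683-227303982 on the minus strand for Anxa1. Capitals mark matches on either strand to TATAA (the core of a TATA box), to GGGCGG (a GC box, bound by Sp factors) and to TGAGTCA (a common AP-1 site, bound by Jun and Fos dimers).
S100a6: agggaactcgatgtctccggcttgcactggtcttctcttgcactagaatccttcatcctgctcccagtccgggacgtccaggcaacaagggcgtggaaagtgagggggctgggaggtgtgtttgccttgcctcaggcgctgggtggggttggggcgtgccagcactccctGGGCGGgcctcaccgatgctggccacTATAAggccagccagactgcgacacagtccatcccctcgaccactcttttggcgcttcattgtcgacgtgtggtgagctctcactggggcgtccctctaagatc
S100a4: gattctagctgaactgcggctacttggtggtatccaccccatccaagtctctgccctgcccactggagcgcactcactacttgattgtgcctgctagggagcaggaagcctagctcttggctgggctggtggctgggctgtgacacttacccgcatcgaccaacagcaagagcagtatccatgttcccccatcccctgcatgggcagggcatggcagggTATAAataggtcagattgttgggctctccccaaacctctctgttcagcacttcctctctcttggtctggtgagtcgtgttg
Anxa2: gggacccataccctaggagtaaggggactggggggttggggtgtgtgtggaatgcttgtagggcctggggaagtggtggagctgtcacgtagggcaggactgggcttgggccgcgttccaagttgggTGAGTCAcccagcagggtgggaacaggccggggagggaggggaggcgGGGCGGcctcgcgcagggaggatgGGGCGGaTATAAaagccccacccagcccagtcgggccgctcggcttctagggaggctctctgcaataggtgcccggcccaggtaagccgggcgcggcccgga
Anxa1: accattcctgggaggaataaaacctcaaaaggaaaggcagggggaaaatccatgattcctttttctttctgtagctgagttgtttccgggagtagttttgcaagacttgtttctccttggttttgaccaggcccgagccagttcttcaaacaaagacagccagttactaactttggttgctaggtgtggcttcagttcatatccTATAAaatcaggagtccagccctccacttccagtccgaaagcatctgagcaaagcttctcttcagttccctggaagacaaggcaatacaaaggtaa
In these 4 promoters no match overlapped another. The S100a6 promoter held 1 GC box starting at base 171 and 1 TATAA starting at base 197, counted from 1 at the 5′ end, and it held no AP-1 match. The TATAA core started at base 220 in S100a4, 206 in Anxa2 and 205 in Anxa1, so all 4 promoters held this core shortly before the annotated start. Anxa2 also held 2 GC boxes and the 1 TGAGTCA match, at base 128. A RefSeq promoter was matched for 7 of the 10 members, the other 3 being S100a10, S100a1 and Anxa6. TATAA was in 5 of the 7 and in 26.2% of all 33469 promoters of this length. GGGCGG was also in 5 of the 7, with overlapping matches in S100a11, and in 33.1% of all promoters. TGAGTCA was in 1 of the 7 and in 4.63% of all promoters. All of these are reference sequences, not read from the rats of this study, so they show no strain difference.

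S100a10 and S100a11 are the S100 genes whose proteins form the best-known complexes with annexins. S100A10 joins annexin A2 in a tetramer at the plasma membrane and helps to carry ion channels and receptors there. S100a10 had a mean of 10.4 per 10000 in Wistar neurons against 16.3 in SHR neurons, a ratio of 1.56 and a log2 difference of 0.60. It came next after S100a6 in both libraries, with ranks of 83 and 53 among all genes. S100A11 partners annexin A1 and annexin A2 at membranes under repair. The mean of S100a11 was 5.13 per 10000 for Wistar and 8.48 for SHR, a ratio of 1.65 and a log2 difference of 0.63. Both genes were more than 1.5 times higher in the SHR neurons. RefSeq names 7 further loci after S100a11, 5 of them pseudogenes, and 1 pseudogene after S100a10. How reads shared with such copies were handled is not given in the sources used here, so the S100a11 level is the less certain of the pair.

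S100a4 encodes metastasin, which binds non-muscle myosin heavy chain and is known from motile cells. It had a mean of 5.86 per 10000 in Wistar, compared with 7.92 in SHR, a ratio of 1.35. This was the smallest ratio among the 6 S100 members. S100a6 was 2.90 times as abundant as S100a4 in Wistar and 6.42 times in SHR, so these genes of 1 chromosomal cluster differed unequally between the libraries.

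S100a13 and S100a1 were the least abundant S100 members. S100A13 takes part in the release of fibroblast growth factor 1, which lacks a signal peptide. The S100a13 mean was 0.863 per 10000 in the Wistar and 1.33 in the SHR library, a ratio of 1.54. S100A1 is best known as a partner of the calcium pump and the ryanodine receptor in heart muscle. The S100a1 mean was 0.603 per 10000 in Wistar neurons against 1.29 in SHR neurons, a ratio of 2.13 and a log2 difference of 0.51. S100a1 thus had the highest ratio of the members after S100a6, at a level far below it.

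Among the annexins, Anxa2 and Anxa5 were higher in SHR by less than the S100 genes, and Anxa6 and Anxa1 were lower. Anxa2, the partner of S100A10, had a mean of 5.29 per 10000 for Wistar and 6.74 for SHR, a ratio of 1.27. RefSeq names 8 pseudogenes after Anxa2. Per Anxa2 count there were 1.97 S100a10 counts in Wistar, compared with 2.42 in SHR. Annexin A5 binds phosphatidylserine and is the usual probe for dying cells. The Anxa5 mean was 1.42 per 10000 in the Wistar and 1.86 in the SHR library, a ratio of 1.31.

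Annexin A6, a large annexin with a doubled core that bridges membranes and cytoskeleton, gave the smallest relative difference of the 10 members. The Anxa6 mean was 4.42 per 10000 in Wistar neurons against 3.82 in SHR neurons, a ratio of 0.866 and a log2 difference of -0.17. This ratio was close to the median of the 7621 genes, 0.863, and below that of the genes averaging at least 1 per 10000, 1.04. Relative to 0.863 the Anxa6 ratio was 1.003, whereas its log2 difference was still below 0 when centred on the median log2 difference, at -0.12. Annexin A1 mediates glucocorticoid and anti-inflammatory actions and is abundant in myeloid and epithelial cells. The Anxa1 mean was 0.133 per 10000 for Wistar and 0.0211 for SHR, a ratio of 0.159. Anxa1 was the rarest member in both libraries, and its SHR mean was 54.1 times the lowest mean above 0 there, against 949 times in Wistar.

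The order of the levels was nearly the same in the libraries. In Wistar it ran S100a6, S100a10, S100a4, Anxa2, S100a11, Anxa6, Anxa5, S100a13, S100a1 and Anxa1. In SHR S100a11 stood at 8.48 per 10000 above S100a4 at 7.92 and Anxa2 at 6.74, and the other 7 members kept their places. The neighbours S100a4, Anxa2 and S100a11 in Wistar lay between 5.13 and 5.86 per 10000, and S100a13 and S100a1 in SHR at 1.33 and 1.29. With 1 value per strain it cannot be said whether such neighbours differ. The chemistry counts molecules at their 3′ end, so levels were compared between genes without division by transcript length.

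**Figure D2:**
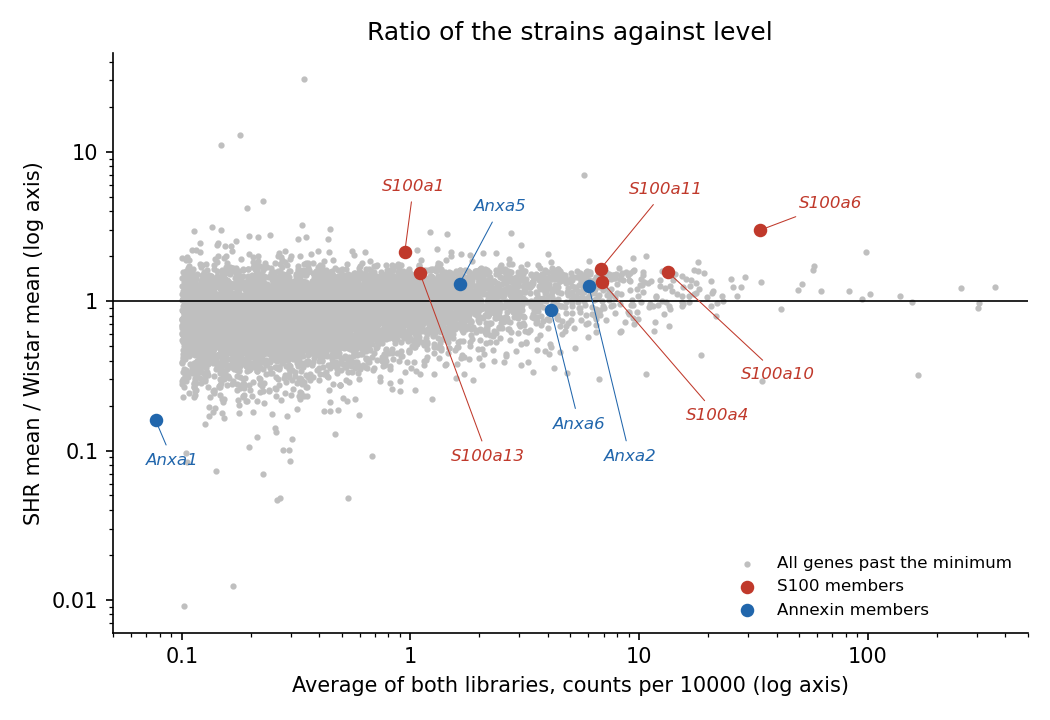
Ratio of the SHR mean to the Wistar mean (log axis) against the average of both libraries in counts per 10000 (log axis), with the 7621 genes past the minimum of 0.1 in grey, S100 members in red and annexins in blue. S100a6 stands above every grey point averaging 10 or more, and the other members lie among or at the edge of the grey points, with Anxa1 left of the minimum.

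The share of genes higher in SHR grew with the level. It was 54.5% of the 1676 genes averaging at least 1 per 10000 and 70.2% of the 94 genes averaging at least 10. At least 1.5 times higher were 10.3% and 19.1% of these genes. S100a6 and S100a10 belong to the 94 genes, and S100a10 had place 12 among them by ratio. Among the 1676 genes, 45 had a ratio as high as that of S100a11 or higher, and 357 as high as that of S100a4.

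Short genes were more often higher in SHR, and the S100 genes are short. The genes past the minimum were ranked by their RefSeq span and split into 10 equal groups, from the shortest (span group 1) to the longest (span group 10). In span group 1 72.8% of the genes were higher in SHR, and in span group 10 14.4%. S100a6 and S100a4 fell in span group 1, S100a11, S100a13 and S100a1 in span group 2 and S100a10 in span group 3. Anxa5, Anxa2 and Anxa6 fell in span groups 6, 7 and 8. Anxa1, under the minimum, was not among the ranked genes and was placed in span group 5 by its span. Among the 487 genes of span groups 1 and 2 that averaged at least 1 per 10000, 80.7% were higher in SHR, 22.6% were at least 1.5 times higher and the median ratio was 1.30. Against these short genes S100a4, with a ratio of 1.35, was near the middle, as 208 of the 487 had a ratio at least as high. For S100a13 this held for 85 genes, for S100a11 for 30, and for S100a6 for 2, itself included. S100a1, averaging 0.945 per 10000, and S100a10, in span group 3, were not among the 487. In span group 2, that of S100a1, 52.8% of the genes were higher in SHR and 9.88% at least 1.5 times higher. In span group 3 these shares were 43.6% and 5.21%. Of the genes in the span group of Anxa5 27.4% were higher in SHR, and of those in the group of Anxa2 24.0%, and both of these annexins were higher. Of the genes in the group of Anxa1 33.3% were higher, and of those in the group of Anxa6 18.4%, and both of these annexins were lower, as were most genes of their groups. Ribosomal protein genes, taken by the start of their symbols, had 106 lines, which summed to 249 per 10000 in the Wistar and 360.1 in the SHR library. Of the 77 with a span group, 67 fell in groups 1 and 2. The part of gene span in these ratios was not tested.

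**Figure D3:**
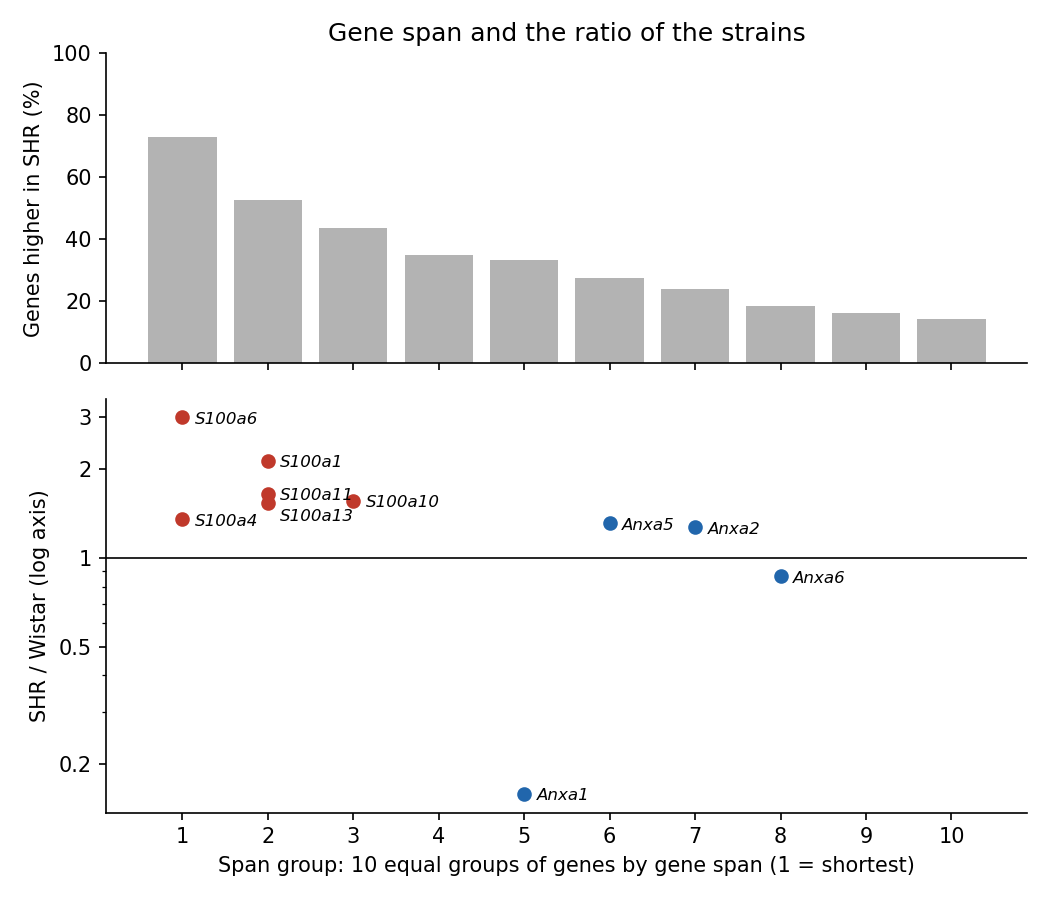
Above, the percentage of genes higher in SHR in each of 10 equal groups of the genes past the minimum by gene span, from 1 (shortest) to 10 (longest). Below, the SHR to Wistar ratio (log axis) of the 10 members at their span group, with S100 genes in red and annexins in blue. Anxa1, under the minimum, is placed by its span and is not counted in the bars. The bars go from 72.8% to 14.4% and all 6 S100 genes lie in span groups 1 to 3.

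Most S100 genes sit side by side in the rat genome, and their values were compared in gene order. RefSeq lists 11 protein-coding genes from S100a1 to S100a9. Of the 10 with a value above 0, 8 were higher in SHR, but 4 of the 8 are the members S100a1, S100a13, S100a4 and S100a6, chosen with the contrast known. Of the 7621 genes 34.4% were higher, and of the shortest, span group 1, 72.8%, but these shares cover only genes past the minimum. Among the 8, S100a8, at 0.0254 and 0.0305 per 10000, and S100a7a, at 0.000170 and 0.00192, were under it. The S100a7a mean in Wistar was close to the lowest mean above 0 there, 0.000140. Lower in SHR were S100a16, at 0.0600 per 10000 in Wistar, compared with 0.0158 in SHR, and S100a9, a neutrophil gene listed at 0.000388 in Wistar and at 0 in SHR. The S100a9 mean in Wistar was below the lowest mean above 0 in SHR, 0.000391, so its direction is uncertain. Inside the cluster the ratios were uneven. S100a5, between S100a4 and S100a6, had a mean of 0.841 per 10000 in the Wistar and 0.879 in the SHR library, and S100a3 had means of 0.309 and 0.356. Thus S100a5 was higher by 4.49%, against 199% for its neighbour S100a6. The nearest genes outside the cluster with a value were Chtop, at 1.06 and 0.949 per 10000, Snapin, at 1.76 and 1.93, and Ilf2, at 1.09 and 0.835. Of these 3 neighbours 1 was higher in SHR. S100a11 and S100a10 lie next to each other at a separate place on the same chromosome, and both were higher.

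**Figure D4:**
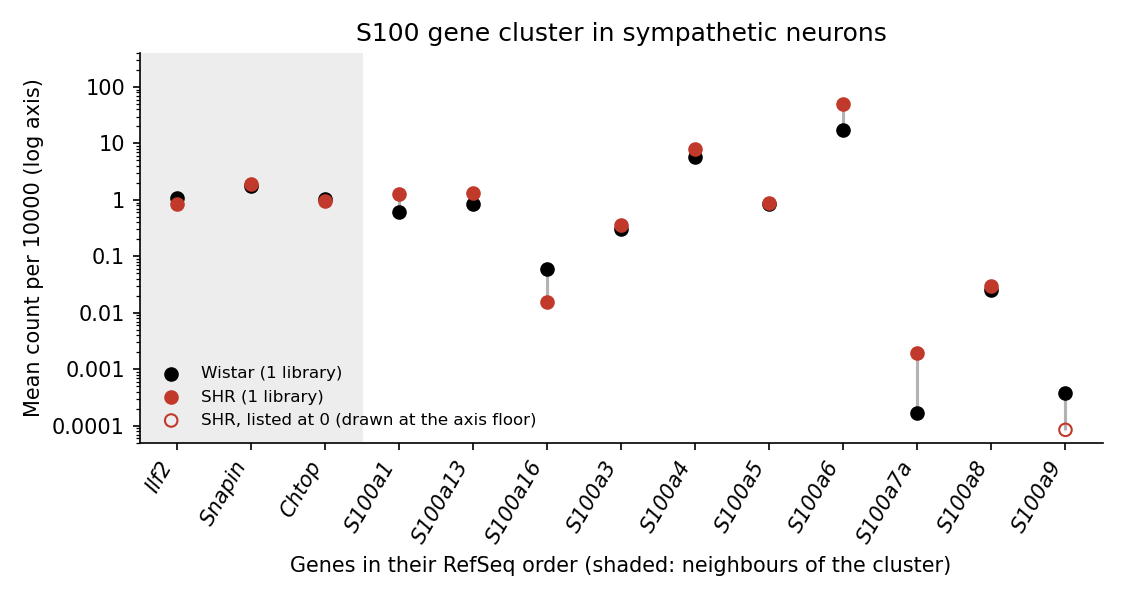
Mean count per 10000 (log axis) of the S100 cluster and its neighbours with a value above 0, in RefSeq order, with Wistar in black and SHR in red; an open circle at the axis floor is a gene listed at 0. S100a6 goes from 17.0 to 50.8, and S100a5 beside it goes from 0.841 to 0.879.

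Beyond the 10 members, 18 further S100 and annexin genes of a list of 19 had a line in the deposited values, of which 13 were above 0 and 6 passed the minimum. Of these 6 genes 4 were higher and 2 lower in SHR, beside 34.4% higher among the 7621 genes. Anxa11, an annexin of RNA granules and vesicle traffic, had a mean of 0.320 per 10000 in Wistar neurons against 0.499 in SHR neurons, a ratio of 1.56. Anxa7 stood at 0.781 and 0.820 per 10000. S100b, the glial S100 gene, went the other way from the S100 members, with a mean of 0.424 per 10000 for Wistar and 0.0744 for SHR, a ratio of 0.175. Anxa4 was also lower, at 0.196 and 0.148 per 10000. Among the genes under the minimum, Anxa3 stood at 0.0867 per 10000 in Wistar, compared with 0.00595 in SHR, and S100a8, the partner of S100a9 in neutrophils, at 0.0254 and 0.0305. S100z, S100vp, Anxa9, Anxa10 and Anxa13 were listed at 0 in both libraries.

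The low ratios of S100b, Anxa1 and Anxa3 came beside lower markers of other cells, a direction that most genes shared. Of the 7621 genes 34.4% were higher in SHR. Many of the markers were under the minimum. Past it were 3 satellite glia, 3 Schwann, 3 fibroblast and 1 immune marker, and all of these were lower in SHR. At least 1.5 times lower were 3, 2, 3 and 1 of them, beside 26.5% of the 7621 genes. With the minimum dropped, 6852 genes were at least 1.5 times lower in SHR and 2039 at least 1.5 times higher. Above 0 were 16000 genes in Wistar and 14645 in SHR. All 6 satellite glia markers, S100b among them, were lower in SHR, and their sum was 7.42 per 10000 in the Wistar and 2.58 in the SHR library. Apoe alone made up 6.24 and 2.23 of these sums. Sox10, a glial transcription factor gene of the same list, stood at 0.0914 and 0.0169 per 10000. All 5 Schwann cell markers were lower, with sums of 13.1 and 9.43 per 10000, and Mag was listed at 0 in SHR. Pmp22 alone made up 11.3 and 8.58 of the Schwann sums. All 6 fibroblast markers were lower, with sums of 1.84 and 0.353. Of the 6 macrophage and immune markers 5 were lower, with sums of 1.10 and 0.396. The sums of the endothelial markers were 0.103 and 0.0345 per 10000, those of the smooth muscle and pericyte markers 0.117 and 0.0693, those of the mast cell markers 0.0276 and 0.00439, and those of the erythrocyte markers 0.0669 and 0.0499. The part of such cells or of their free RNA in the values of S100b, Anxa1 and Anxa3 was not tested. The 6 S100 members were higher where these markers were lower, and the part of other cells in the S100 values was not tested either.

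**Figure D5:**
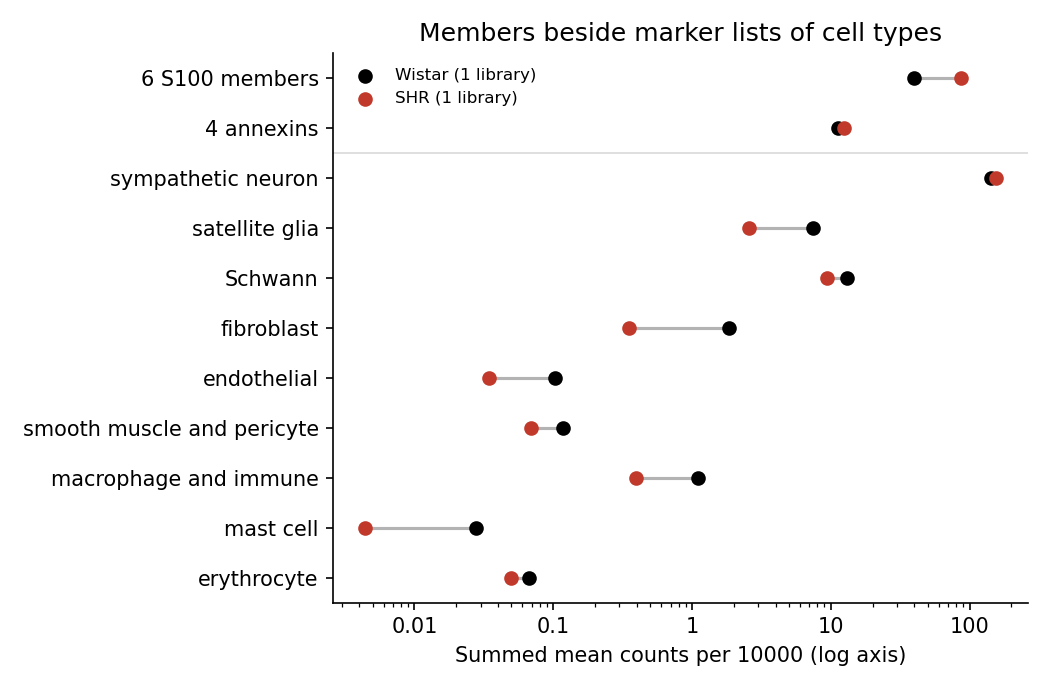
Summed mean counts per 10000 (log axis) of the 6 S100 members, the 4 annexins and the marker lists of cell types, with Wistar in black and SHR in red. The S100 sum goes from 39.9 to 86.2 and the sympathetic neuron sum from 143 to 155, and every list of other cells lies lower in SHR.

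The partners of these proteins were divided much as all genes were. Of 18 listed genes for binding partners, receptors and clients, 10 passed the minimum, of which 3 were higher and 7 lower in SHR, beside 34.4% higher among the 7621 genes. The 3 higher ones were Cacybp, the calcyclin-binding protein gene, at 2.10 and 2.39 per 10000, Sugt1, another S100A6 partner, at 1.48 and 1.63, and Ahnak, the giant scaffold held by S100A10 and annexin A2, at 2.26 and 2.42. Their ratios lay between 1.07 and 1.14. Per Cacybp count there were 8.11 S100a6 counts in Wistar neurons against 21.2 in SHR neurons. Fgf1, whose protein S100A13 helps to release, had a mean of 2.98 per 10000 for Wistar and 2.80 for SHR, and Syt1, the synaptotagmin of the same release complex, 23.4 in both.

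Lower by at least 1.5 times were 3 of the 10 partner genes past the minimum, beside 26.5% of the 7621 genes. Dysf, encoding the membrane repair protein dysferlin, had a mean of 0.740 per 10000 in Wistar, compared with 0.258 in SHR. Ryr2, the ryanodine receptor gene, stood at 0.475 and 0.230, and Plat, the tissue plasminogen activator gene, at 0.354 and 0.186. Dysf and Ryr2 fell in span group 10, the longest genes, of which 47.0% were at least 1.5 times lower, and Plat in span group 9, of which 40.9% were. Atp2a2, the calcium pump gene, had means of 3.24 and 2.72 per 10000, and Hltf 0.121 and 0.105.

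The partners under the minimum included the receptors. Ager, the receptor gene for several secreted S100 proteins, stood at 0.131 per 10000 in the Wistar and 0.0349 in the SHR library. Fpr2, a receptor gene for annexin A1, stood at 0.00651 and 0.0148, and Fpr1 was listed at 0 in both libraries. Kcnk3, the gene of a leak potassium channel carried by S100A10, had means of 0.0632 and 0.136 per 10000, and Asic1 0.0332 and 0.0400. Myh9, Htr1b and Htr4 were all under 0.01 per 10000.

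S100a6 and Gap43 are both known from nerve injury and regrowth, and 8 nerve injury genes were listed for comparison. Of the 5 past the minimum 2 were higher in SHR, close to the 34.4% of the 7621 genes. Gap43 had a mean of 13.3 per 10000 in Wistar neurons against 21.5 in SHR neurons, a ratio of 1.62 although it fell among the long genes of span group 9, and Atf3, an injury-induced transcription factor gene, stood at 1.68 and 1.78. Jun was lower, at 3.33 and 2.56 per 10000, as were Ecel1, at 1.72 and 1.37, and Gadd45a, at 0.398 and 0.373. The injury peptide gene Gal had a mean of 0.151 per 10000 for Wistar and 0.0224 for SHR. Sox11 and Sprr1a were at most 0.0300 per 10000 in either library.

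The genes closest to S100a6 in both levels were Actg1, Fth1, Hsp90ab1, Uchl1 and Tubb5. Closeness was the distance over the 2 values of log2 of 1 plus the mean, 1 for each library, and it ran from 0.72 for Actg1 to 0.91 for Tubb5. Actg1, a cytoplasmic actin gene, had a mean of 23.9 per 10000 in Wistar, compared with 34.4 in SHR. Fth1, the ferritin heavy chain gene, had means of 20.9 and 29.6. All 5 genes were higher in SHR, with ratios from 1.23 to 1.44, against 2.99 for S100a6.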

How the data were processed

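scRNAseq libraries of dissociated stellate ganglia were made with 10x Genomics single cell 3′ v3 chemistry and sequenced on a HiSeq 4000, with 1 library per strain. The submitters' processing notes name Cell Ranger 3.0.2, Seurat 3 and build Rnor_6.0. Filters on cells and doublets are not given in the sources used here. The authors averaged the sympathetic neurons they had clustered and deposited the average of each gene as a natural log, ln(1 + m), where m is the mean per 10000 counts of a neuron. Values were converted back with exp(x) - 1, and each library then summed to 10000. The authors' table of the strain comparison holds their fold changes, p-values and shares of cells, and was not used.

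Of 25399 lines, 4 were dropped because their names occur more than once. Ratios of the means and differences of log2(1 + mean), SHR minus Wistar, were computed with Python 3.11.15, NumPy 2.4.6 and pandas 2.3.3, and the functions were tested on simulated data. Counts over many genes used a minimum average of 0.1 per 10000 and a ratio of 1.5. Spans came from GRCr8 RefSeq genes and were used as ranks, for 95.6% of the 7621 genes past the minimum. A single library on each side allows no spread, test or interval, and depth is unknown. Genes named are the 10 members, family, partner, injury and marker lists, the 5 genes nearest to S100a6 and neighbours in the S100 cluster, plus Jund, which was named after its values were seen. The members and lists were chosen with earlier results of these data known. Other pseudocounts, scalings and minimums were tried.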

Additional observations from a re-analysis of the deposited data

How the results depend on the processing

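No paired analysis was possible because only 1 library represents each strain, and no library could be left out. The log2 difference of S100a6, 1.53, was 1.57 with a pseudocount of 0.1 and 1.17 with 10. It was 1.58 both when the libraries were rescaled leaving out transcripts of mitochondria and ribosomal proteins and when the log2 differences were centred on their median. The median log2 difference of the members past the minimum, 0.38, became 0.57 and 0.13 with these pseudocounts, 0.43 under either of these scalings, and 0.35 in 4 cases: with the minimum dropped, with it raised to 1 per 10000, without S100a6 and over all 10 members. The last 2 settings were chosen after the data were seen. Genes past a ratio of 1.5 numbered 398 higher and 2021 lower. They numbered 506 and 2037 with the total without mitochondrial and ribosomal protein genes, and 396 and 2018 with the total without markers of other cell types. With ratios divided by their median they numbered 1005 and 1320. The counts were 2039 and 6852 with the minimum dropped, and 172 and 195 with a minimum of 1, by construction. Leaving the markers of other cell types out of the total moved none of the 9 other members by 0.005 in log2 difference. These markers made up only 23.8 and 12.9 of the 10000 counts, so this setting could hardly move any value. It does not bear on the part of other cells in the values. None of the 9 changed sign in log2 of 1 plus the mean under the 5 pseudocounts and scalings tried, but on the plain ratio Anxa6 went from 0.866 to 1.003 when ratios were divided by their median. Depth is unknown, so the values of the rare transcripts, Anxa1 first among the members, are the least certain.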
